A study of Mus musculus with 4 samples.

Results

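Langerhans cells of the regenerating mouse digit tip were chosen by their own transcripts in 4 single-cell RNA libraries. A barcode was a member when it held at least 2 unique molecular identifiers (UMIs, each marking 1 captured transcript) of Cd207 and at least 5 UMIs of the MHC class II genes H2-Aa, H2-Ab1 and Cd74 together. This rule found 597 members among 93602 kept cells, where a kept cell had 200 to 5500 genes, at most 30000 UMIs and at most 10% mitochondrial UMIs. The libraries came from digits labeled P3, the terminal phalanx, of female C57BL/6 mice (C57BL/6J in the study's text) aged 6 to 8 weeks. Each held the hindlimb digits 2 to 4 of 10 mice pooled into 1 suspension. Per the study's text these digits were taken from the proximal P2 level onward, and the P3 amputation was made on digits 2 and 4. In 1 experiment the digits of limbs with lymph node removal (LNR) were set against sham digits, which per the study's text were from the opposite limb. In the other, mice fed chow with SAR131675, an inhibitor of the lymphatic receptor VEGFR3, at 30 mg/kg (30 ppm in the chow) were set against mice on control chow, for the 8 days of diet that the labels record. The sources differ on the day after amputation, and the labels give none. There was 1 library per condition and the labels number each library as a separate batch, so treatment and batch cannot be told apart and no p-value between conditions was computed.

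As background, Langerhans cells are the resident antigen-presenting cells of the epidermis. They settle in the skin before birth, renew themselves there by division, and depend on the receptor Csf1r with its ligand IL-34 from keratinocytes and on TGF-β signaling. Their lectin langerin, the product of Cd207, forms Birbeck granules, E-cadherin and EpCAM join them to keratinocytes, and on maturation they migrate through lymphatic vessels to lymph nodes. Langerin is also made by a subset of conventional dendritic cells, so the rule alone does not separate these.

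By library, 126 of 19827 kept LNR cells, 191 of 20669 sham cells, 156 of 29076 SAR131675 cells and 124 of 24030 control chow cells were members. Members had a median of 6918.5, 6228, 11533 and 10627.5 UMIs and of 2158.5, 1997, 3624 and 3484 genes in that order. The chow libraries were thus the deeper pair. Conditions are compared within a pair, and values set side by side across pairs are a description only. All barcodes together held 168507188 to 585284877 UMIs per library. LNR and sham shared 101 kept barcode sequences and the chow libraries 210, but no member's barcode occurred in a second library.

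The values behind the rule are given as a description. The median member held 13, 13, 23 and 14 Cd207 UMIs and 290.5, 281, 465 and 430.5 class II UMIs in LNR, sham, SAR131675 and control chow. Members held 96.6% to 97.8% of all Cd207 UMIs of kept cells and 36.7% to 43.8% of their class II UMIs. Just inside the rule, 2, 18, 9 and 15 members had exactly 2 Cd207 UMIs, with a median of 181, 45, 72 and 81 class II UMIs. Just outside it, 13, 45, 14 and 22 kept cells had 1 Cd207 UMI and enough class II UMIs, with a median of 45, 15, 37.5 and 11.5 class II UMIs. Another 1, 0, 1 and 4 cells had 2 or more Cd207 UMIs and too few of class II. The sham library held the most barcodes on either side of the Cd207 limit.

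Members were first checked against a marker that the rule did not use. Epcam, the epithelial adhesion molecule, had a UMI in 96.0%, 97.9%, 95.5% and 96.0% of members in LNR, sham, SAR131675 and control chow. After thinning each cell to 2000 UMIs, which 126, 188, 152 and 120 members had, the shares were 75.4%, 76.1%, 82.2% and 80.0%. Fibroblasts, which should lack Epcam, had it in 2.43%, 2.77%, 7.17% and 4.32% of cells at median depths of 3926 to 10413 UMIs. Thinned to the same depth, the fibroblast shares were 1.11%, 1.44%, 2.68% and 1.69% of 5226, 4639, 4373 and 3676 cells. Epcam was thus found in members far above its level in fibroblasts at equal depth. Of the cells just outside the rule with 1 Cd207 UMI, 7 of 13, 34 of 45, 8 of 14 and 13 of 22 also had an Epcam UMI, as sequenced. The check therefore sets members apart from fibroblasts only.

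The genes that led the members by fold over all other kept cells, with 10 CPM (UMIs of a gene per 1000000 UMIs) added, were Cd207, H2-Eb1, Cd74, H2-Ab1, H2-Aa, Gpr141, Hpgds, Cacna1e, H2-M2, H2-DMa, Cd86, Mfge8, H2-DMb1, Cytip and Il7r. Since the members were chosen in the same cells, these folds are a description: 181 for Cd207, 89.5 for H2-Eb1, a class II β chain outside the rule, and 51.5 for Gpr141, an orphan receptor. Hpgds, which encodes hematopoietic prostaglandin D synthase, stood at 332, 386, 976 and 955 CPM in members and at no more than 5.6 CPM in the other kept cells of each library. Xcr1 and Clec9a, markers of the type 1 conventional dendritic cells (cDC1), had no UMI in the members of LNR and sham. In SAR131675 and control chow they had 42 and 0 Xcr1 UMIs and 21 and 5 Clec9a UMIs, and 6 and 1 members held at least 2 UMIs of both genes together.

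Transcripts of other cell types were counted in the members as well. A list of 10 keratinocyte genes summed to 22035, 18849, 3349 and 7228 CPM in the members of LNR, sham, SAR131675 and control chow. These UMIs were not spread evenly, since the median member had 0.0716%, 0.0953%, 0.0762% and 0.0559% of its UMIs from the list, whereas 47, 73, 22 and 25 members had 0.3% or more. Those members were also deeper, with a median of 14518, 12956, 17224 and 12340 UMIs against 5176, 5081, 11336 and 10556 in the 430 members below 0.3%. Over members at 0.3% or more the list summed to 35506, 30777, 16296 and 30995 CPM. Cells chosen as keratinocytes, with 10 or more Krt5 and Krt14 UMIs and no Ptprc UMI, held 27967, 29041, 26009 and 26965 CPM. The class II pathway list without the rule's genes summed to 4381.5, 4497, 7265 and 6114 CPM in members at 0.3% or more. In members below 0.3% it summed to 14334, 14733, 14717 and 14566 CPM. What the members at 0.3% or more are was not tested. The LNR and sham libraries held the larger shares of such members, 37.3% and 38.2%, against 14.1% and 20.2% in SAR131675 and control chow. Values over the 430 members with few keratinocyte transcripts are therefore given beside several results.

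**Figure D1:**
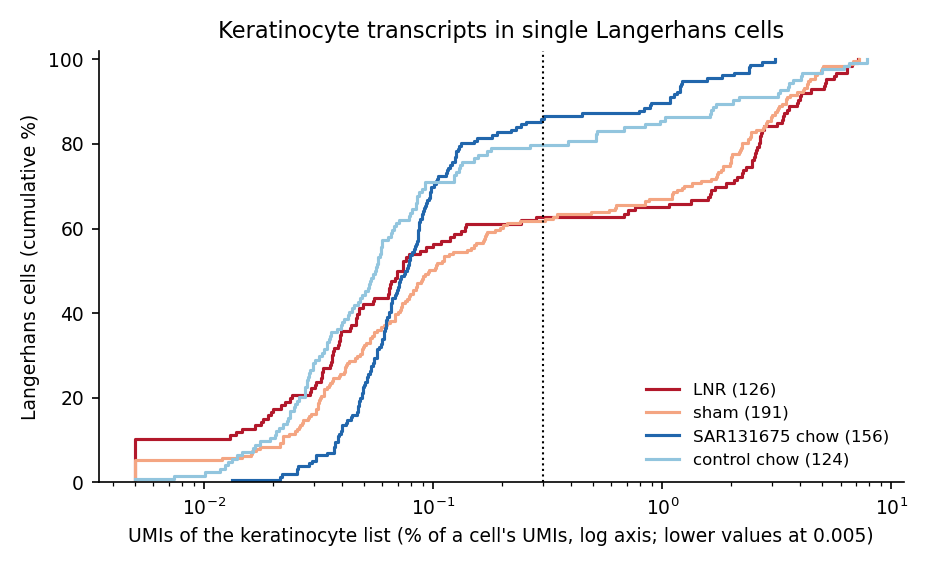
Cumulative share of members (percent, vertical axis) against the share of each member's UMIs that came from the keratinocyte list (percent, log axis), with 1 line per library and a dotted line at 0.3%. Between 37.3% and 38.2% of the members of LNR and sham lay at or above the dotted line, against 14.1% and 20.2% in SAR131675 and control chow.

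Markers of the remaining types stood lower. The macrophage list summed to 1950, 1850, 610 and 543 CPM in members, where cells chosen as macrophages held 25412 to 33898 CPM. The fibroblast list summed to 1232, 1866, 273 and 678 CPM, the neutrophil list to 176, 274, 0.537 and 0 CPM, and the T cell list to 53.5, 12.9, 2.15 and 15.2 CPM. The B cell list stayed at or below 2.15 CPM with Cd79b at 0, and the melanocyte list at or below 1.52 CPM with Mlana and Tyrp1 at 0. Over members with few keratinocyte transcripts the fibroblast list summed to 2876, 2363, 318 and 337 CPM and the neutrophil list to 303, 1.56, 0.646 and 0 CPM. The order of LNR and sham was therefore turned in both lists, with sham the higher over all members and LNR the higher over these.

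To ask what separates Langerhans cells from the other antigen-presenting and phagocytic cells of the same digits, the members' summed UMIs were compared with those of cells chosen as dendritic cells and as macrophages. The dendritic cells had no Cd207 UMI, at least 5 class II UMIs, at least 2 UMIs of Flt3, Xcr1, Clec9a and Cd209a together and under 5 UMIs of the C1q genes, and numbered 121, 114, 173 and 84 in LNR, sham, SAR131675 and control chow. The macrophages had no Cd207 UMI, at least 5 C1q UMIs and under 2 UMIs of the same dendritic genes, and numbered 1093, 979, 790 and 661. Each comparison used 4 libraries per side with the library as a block in the quasi-likelihood test of edgeR, and adjusted p-values are over all genes tested. The 4 libraries are replicates of a cell type here and differ in treatment, and genes used by a gate were not counted.

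Against dendritic cells, 1023 of 9302 genes (11.0%) were higher in Langerhans cells and 1151 (12.4%) were lower. Without the library block these were 354 and 508, and without the control chow library 619 were higher. Epcam, Cdh1, Mfge8, Csf1r and Runx3 were among the genes higher, and most listed C-type lectins and cytokines were lower. For lectins this depends in part on the gate, which used the lectin genes Cd209a and Clec9a. Of 16 Langerhans markers outside the rule, 8 were higher, 6 lower and 2 not called, at a median log2 fold change of 1.22 against 0.03 over all genes tested. Those higher were Epcam, Cdh1, Cldn1, Mfge8, Ly75, Cd24a, Csf1r and Ltc4s, and those lower were Adgre1, Itgam, Sirpa, Ptprc, Fcer1g and Fcgr2b.

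Among the adhesion genes, Epcam stood at 659, 743, 1433 and 1242 CPM in the members of LNR, sham, SAR131675 and control chow and at 56.5, 12.0, 24.3 and 31.2 CPM in dendritic cells. The ranges did not overlap, and the log2 fold change was 5.11 ± 0.37 (SE, n = 4 libraries per side; edgeR adjusted p = 4.1e-05). Cdh1, which encodes E-cadherin, stood at 190, 216, 415 and 428 CPM against 45.2, 49.6, 45.1 and 44.1 CPM, a log2 fold change of 2.73 ± 0.23 (edgeR adjusted p = 7.7e-05). Cldn1, a tight junction claudin, was higher by 4.27 ± 0.20. Every member library lay above every dendritic cell library for Epcam and Cdh1. Keratinocytes express these adhesion genes too, and over members and dendritic cells with few keratinocyte transcripts the log2 fold change of Epcam was 7.35.

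Mfge8 encodes a secreted protein that bridges phagocytes to phosphatidylserine on dying cells. It stood at 2341, 2611, 2720 and 2989 CPM in members and at 43.7, 25.5, 12.4 and 11.8 CPM in dendritic cells, a log2 fold change of 6.99 ± 0.35 (edgeR adjusted p = 6.6e-06). Ly75, the endocytic receptor DEC-205, was higher by 5.34 ± 0.46 on the log2 scale. Csf1r, the receptor for CSF1 and IL-34, stood at 425, 463, 463 and 562 CPM against 80.4, 78.1, 68.2 and 100 CPM, a log2 fold change of 2.56 ± 0.12 (edgeR adjusted p = 5e-06). In that receptor group of 4 genes tested, Csf2rb, the β chain shared by the receptors for GM-CSF, IL-3 and IL-5, was also higher (1.06) and the other two were not called.

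The 10 largest rises were those of Slc36a2, Tspan8, Tmem45b, P2rx2, Hapln3, Hpgds, H2-M5, Ltc4s, H2-M2 and Mfge8. Slc36a2, an amino acid transporter, had 89.2, 76.3, 221 and 287 CPM in members and no UMI in dendritic cells, so that it was at least 230.2-fold higher against a floor of 3 UMIs over the 4 dendritic cell sums together. By the same floor the tetraspanin Tspan8 was at least 173-fold, Tmem45b at least 159-fold, the ATP-gated channel P2rx2 at least 119-fold and Hapln3 at least 70.7-fold higher. H2-M5, a nonclassical class I gene, had 656 UMIs in members and 1 in dendritic cells, a ratio of 443 (95% interval 79.3 to 17535), and its relative H2-M2 was higher by 7.08 ± 0.28 on the log2 scale. Both eicosanoid synthases were high in members: Ltc4s, leukotriene C4 synthase, stood at 319, 419, 363 and 354 CPM against 5.65, 0, 0.564 and 1.08 CPM (log2 fold change 7.82 ± 0.39). Hpgds was higher by 8.66 ± 0.28 (edgeR adjusted p = 2.6e-06).

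The 10 largest falls were those of Mucl1, Ear2, Ms4a4c, Plac8, Cybb, Ccl9, Ccr2, Mgl2, Il1rl1 and Clec4b1. Mucl1 had no UMI in members and 62.1, 135, 194 and 479 CPM in dendritic cells, and was at least 455-fold lower against a floor of 3 UMIs over the 4 member sums. Ms4a4c and Plac8 had 3 UMIs each in members, a ratio of 0.00471 (0.000968 to 0.0139) for Ms4a4c and of 0.00777 (0.00159 to 0.0230) for Plac8. Ccr2, the chemokine receptor that draws monocyte-derived cells into tissue, had 0, 0, 20.4 and 7.62 CPM in members against 452, 509, 801 and 752 CPM, a log2 fold change of -6.62 ± 0.55 (edgeR adjusted p = 7.5e-05). Mgl2, the lectin CD301b of dermal dendritic cells, was lower by -6.34 ± 0.25 (edgeR adjusted p = 3.1e-06), and Cybb, the catalytic subunit of the phagocyte NADPH oxidase, by -6.86. The remaining falls, of the ribonuclease Ear2, the chemokine Ccl9, the IL-33 receptor Il1rl1 and the lectin Clec4b1, lay between -7.51 and -6.13.

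**Figure D2:**
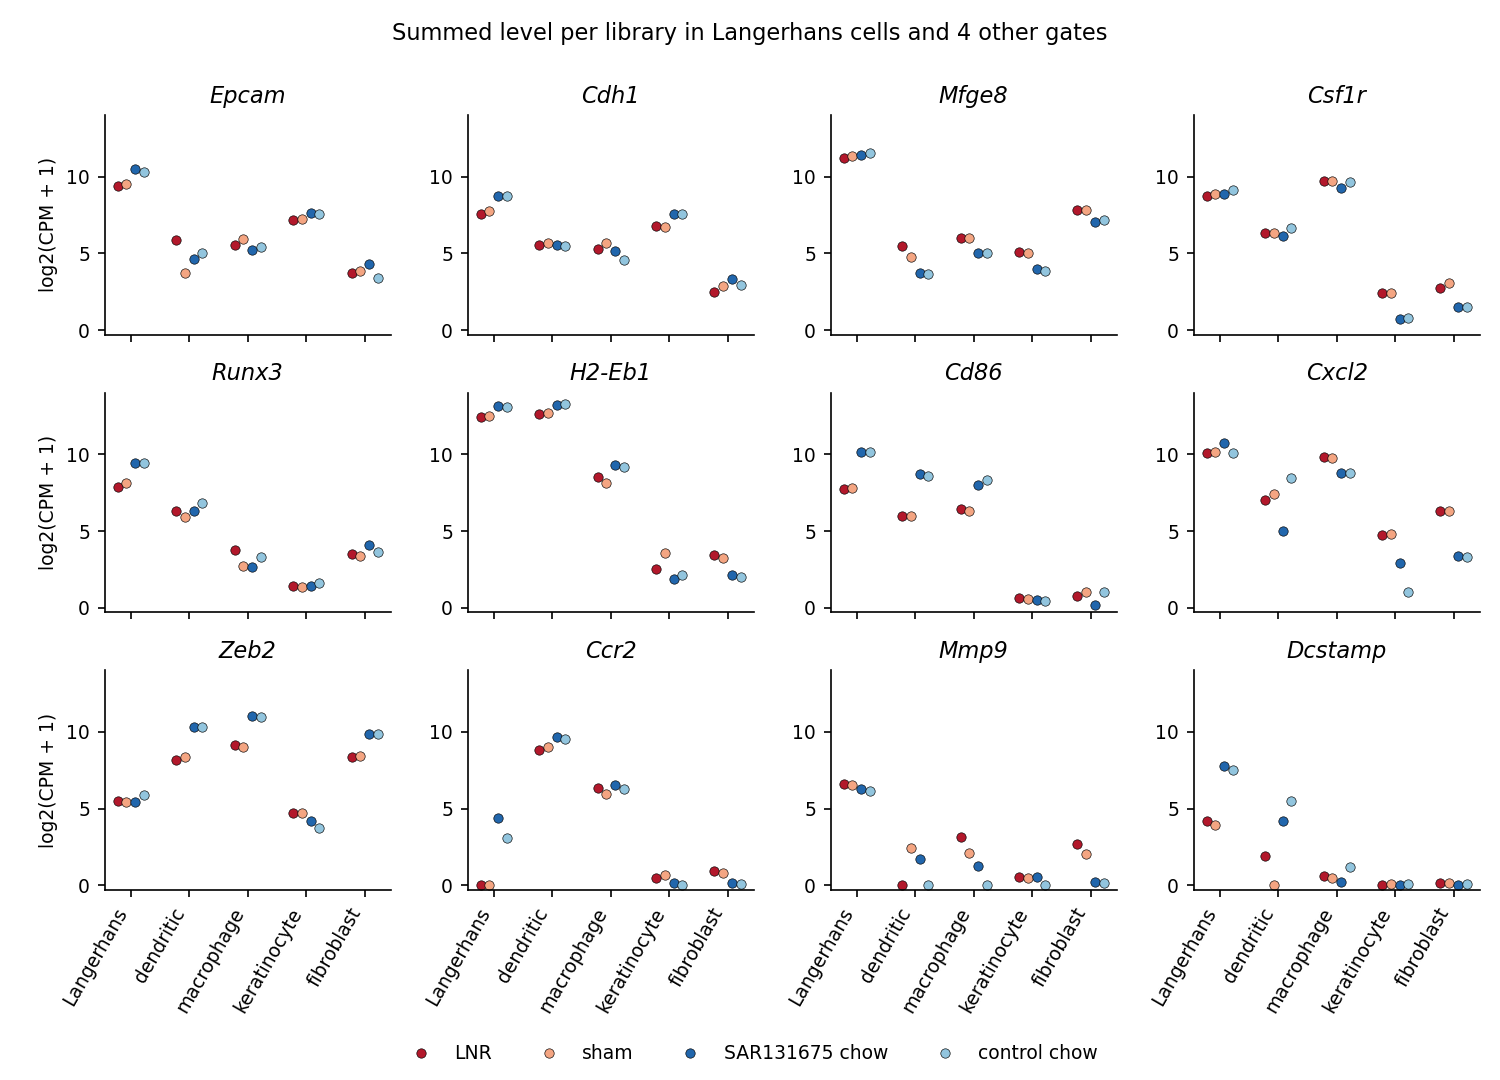
Level of 12 genes as log2(CPM + 1) in Langerhans cells, dendritic cells, macrophages, keratinocytes and fibroblasts of the digit, with 1 point per library and 4 libraries per cell type. Epcam, Cdh1, Mfge8 and Runx3 lay higher in every Langerhans library than in every dendritic cell library, and Zeb2 and Ccr2 lay lower.

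Class II pathway genes differed from dendritic cells in both directions, and the dendritic cells were themselves chosen for class II. Of 10 genes tested, 2 were higher, 4 lower and 4 not called, with a median of -0.15. H2-Eb1 was not called (log2 fold change -0.15, edgeR adjusted p = 0.070). H2-DMb2, a chain of the peptide-loading factor H2-M, stood at 146, 174, 336 and 274 CPM against 43.7, 55.6, 57.0 and 58.1 CPM (2.09 ± 0.18, edgeR adjusted p = 7.6e-05), and H2-DMa was higher by 0.50 ± 0.11. The endosomal protease Lgmn (-1.72 ± 0.27), the reductase Ifi30 (-0.83), Ctss (-0.43) and the H2-M inhibitor subunit H2-Ob (-2.46) were lower. Of 10 class I pathway genes, 5 were lower and none was higher by that test (median -0.40), among them H2-D1 (-1.25), H2-K1 (-0.76) and B2m (-0.41). The smaller of these differences kept their size but not their call when a library was left out, since H2-DMa was not called without control chow (0.45, edgeR adjusted p = 0.071), Ctss without sham (-0.40, 0.066) or B2m without LNR, sham or control chow (-0.43 to -0.35, 0.063 to 0.11). Over cells with few keratinocyte transcripts Ctss (-0.13) and B2m (-0.16) were not called either.

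Among 14 maturation and migration genes, 1 rose, 6 fell and 7 did not pass the test (median -0.78). The costimulatory ligand Cd86 was the one higher, at 216, 224, 1114 and 1142 CPM in members against 60.7, 63.1, 426 and 383 CPM (log2 fold change 1.63 ± 0.12, edgeR adjusted p = 4.5e-05). Cd80 (-0.82) and the activation marker Cd83 (-0.70) were lower, as was the chemokine receptor Cxcr4 (-3.21). Ccr7, the receptor that guides dendritic cells into lymphatic vessels, was not called at -2.10 (edgeR adjusted p = 0.060). Cd86 was not called without the library block (1.53, edgeR adjusted p = 0.28), Cd80 without LNR, sham or control chow (-0.87 to -0.61, 0.065 to 0.15) and Cd83 without LNR or sham (-0.58 and -0.48, 0.073 and 0.12).

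Of 14 lineage transcription factors, 2 were higher, 4 lower and 8 not called. Runx3, which Langerhans cells need to form, stood at 236, 282, 699 and 679 CPM in members and at 77.6, 60.1, 78.4 and 113 CPM in dendritic cells (2.44 ± 0.23, edgeR adjusted p = 0.00012). Zeb2 stood at 43.8, 42.5, 41.4 and 59.5 CPM against 281, 323, 1290 and 1260 CPM, a log2 fold change of -3.79 ± 0.38 (edgeR adjusted p = 0.00018). Batf3, a factor of cDC1 cells, was lower by -3.57, and Zbtb46, a factor of conventional dendritic cells, by -1.16. Of 13 TGF-β and BMP signaling genes, 4 were higher, namely the receptors Tgfbr1 (0.70) and Bmpr1a (0.66) and the feedback genes Smad7 (0.91 ± 0.14) and Skil (0.49), while 2 were lower, including the ligand Tgfb1 (-0.91), with a median of -0.01. Tgfbr1 and Bmpr1a were not called by DESeq2 (adjusted p = 0.15 and 0.17) or without sham, SAR131675 or control chow (log2 fold changes of 0.54 to 0.74), and Skil was not called without SAR131675 (0.43) or control chow (0.49).

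Lectins and cytokines lay mostly on the low side. Of 11 C-type lectins, 2 were higher, 8 lower and 1 not called (median -3.76), with Clec10a at -5.64 and Clec4n at 0.92, the latter not called without SAR131675 (0.79). The dendritic cells were themselves chosen in part by the lectin genes Cd209a and Clec9a, which are not counted here. Lectins found in the same cells as these can be raised on the dendritic side by that choice. Of 16 cytokines and chemokines, 3 were higher, 11 lower and 2 not called (median -1.48). Il1b stood at 137, 82.5, 253 and 153 CPM in members and at 1318, 1619, 1271 and 1378 CPM in dendritic cells, a log2 fold change of -3.24 ± 0.28 (edgeR adjusted p = 8.4e-05). Ccl17, a ligand of the T cell receptor CCR4, was lower by -5.17 ± 0.44. The exceptions were Cxcl2, Cxcl16 (1.09 ± 0.12) and Il18 (1.13 ± 0.16). Cxcl2, which attracts neutrophils, stood at 1095, 1139, 1685 and 1069 CPM against 131, 167, 31.0 and 341 CPM (3.19 ± 0.57, edgeR adjusted p = 0.0040), and the ranges did not overlap. Of 7 chemokine receptors, Ccr1 was higher (2.41) and 3 were lower.

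Because the study's readout was bone and osteoclasts, genes of the osteoclast program were also listed. Of 6 tested, 2 were higher, 1 lower and 3 not called, with a median of 0.70. Mmp9, a gelatinase, stood at 95.7, 90.5, 76.8 and 68.6 CPM in members against 0, 4.51, 2.26 and 0 CPM in dendritic cells (5.49 ± 0.42, edgeR adjusted p = 5e-05), and 67, 81, 69 and 43 members had a UMI of it. Dcstamp, a fusion protein of osteoclasts and giant cells, stood at 17.0, 14.2, 219 and 181 CPM against 2.82, 0, 17.5 and 45.2 CPM (2.86 ± 0.35, edgeR adjusted p = 0.00052). Members held 37.5%, 53.5%, 73.4% and 63.7% of all Dcstamp UMIs of kept cells and 12.7%, 16.2%, 24.9% and 31.8% of all Mmp9 UMIs. Tnfrsf11a, the receptor RANK, was lower by -1.01 ± 0.21, and the osteoclast protease Ctsk was not called (-0.52, edgeR adjusted p = 0.51). Without control chow Tnfrsf11a was not called (-0.93), nor was Dcstamp without the library block (2.62, edgeR adjusted p = 0.21).

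Other lists gave smaller or mixed differences. None of 18 cell division genes was higher than in dendritic cells and 2, Mcm3 and Rrm2, were lower. Of all genes tested, 11.0% were higher and 12.4% lower. Of 12 dissociation stress genes 3 were higher and 1 lower, and of 5 interferon-stimulated genes 3 were lower. The keratinocyte list had 4 of 10 genes higher and none lower (median 1.04), with Krt14 at 1.39 ± 0.15. Over cells with few keratinocyte transcripts none of the 10 was called and Krt14 stood at 0.05. Those cells are picked by this same list on both sides, so that result follows from the choice and is no test. No fibroblast gene of 6 was called. Of 6 genes of the macrophage list, 2 were higher, among them Apoe (0.64, not called without LNR, sham or control chow, at 0.52 to 0.66), and 3, among them Lyz2 (-5.34), were lower. The cDC1 and cDC2 lists, in part used by the gate, had 3 of 5 and 5 of 6 genes lower, and Cadm1 of the cDC1 list was higher (1.64).

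Against macrophages, 1898 of 12092 genes (15.7%) were higher in Langerhans cells and 2004 (16.6%) were lower. Without the library block these were 896 and 1166, and without the control chow library 1233 were higher. Most listed class II pathway genes were higher, and most listed C-type lectins and interferon-stimulated genes were lower. The comparison shares the members' sums with the one before, so the 2 sets of values are not independent. Of 16 Langerhans markers, 8 were higher, 7 were lower and the median was 0.59 against 0.01 over all genes tested.

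Epcam was higher by 4.59 ± 0.29, Cdh1 by 3.25, Cldn1 by 4.45 and Mfge8 by 6.07 on the log2 scale, and the integrin Itgax, CD11c, by 5.03 ± 0.29. Csf1r took the other direction here, at 841, 818, 615 and 811 CPM in macrophages, with a log2 fold change of -0.50 ± 0.12 (edgeR adjusted p = 0.016). It was not called without LNR, sham or control chow (-0.53 to -0.42, 0.057 to 0.083) or over cells with few keratinocyte transcripts (-0.28, edgeR adjusted p = 0.11). The macrophage markers Adgre1 (-1.72), Itgam (-2.38), Sirpa (-1.16) and Cx3cr1 (-3.80) were lower. Thus Epcam, Cdh1, Cldn1 and Mfge8 were higher than in both other cell types, whereas the call of a higher Csf1r level was made against dendritic cells alone.

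Of 11 class II pathway genes, 7 were higher, 2 lower and 2 not called (median 3.91). H2-Eb1 stood at 5564, 5720, 9151 and 8747 CPM in members against 363, 281, 642 and 579 CPM in macrophages (4.19 ± 0.16, edgeR adjusted p = 4.3e-06). The class II transactivator Ciita was higher by 4.31 ± 0.18, H2-DMa by 4.15 and H2-DMb1 by 3.91, while the proteases Lgmn (-5.23) and Ctss (-0.70) were lower. The macrophage gate did not ask for class II, and the members were chosen for it.

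The 10 largest rises were H2-M5, Cacna1e, Gpr171, H2-M2, Ly75, P2rx2, Slc36a2, Septin3, Hapln3 and St8sia1, of which H2-M5, H2-M2, P2rx2, Slc36a2 and Hapln3 were also among the 10 against dendritic cells. Cacna1e, a calcium channel subunit, was higher by 9.55 and Ly75 by 9.06. H2-M5 and Gpr171 had 2 and 1 UMIs in macrophages, ratios of 1226 (338 to 10143) and 1215 (216 to 48118). The 10 largest falls were Vsig4, Retnla, Fcgr1, Ccl24, Folr2, Ms4a4a, Trem2, Tmem37, Pf4 and Mrc1. Vsig4, a complement receptor of resident macrophages, had 1 UMI in members against 6419 in macrophages, a ratio of 0.000582 (1.47e-05 to 0.00324). Pf4, a platelet and macrophage chemokine, stood at 25.1, 43.7, 24.7 and 4.57 CPM in members against 4412, 4103, 4839 and 4723 CPM (-7.45 ± 0.50), and the mannose receptor Mrc1 was lower by -7.43. All 10 genes tested of the macrophage list were lower (median -6.78).

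Of 14 lineage factors, 5 were higher and 5 lower. Runx3 was higher by 5.94 ± 0.43 (edgeR adjusted p = 4.9e-05), Ahr by 1.49, Irf4 by 1.21 and Zbtb46 by 2.08. Zeb2 was lower by -4.37 ± 0.41, so that it lay below both other cell types. Of 17 cytokines and chemokines, 4 were higher and 9 lower (median -0.83). Ccl22 (6.79), Il18 (1.95), Cxcl16 (1.57) and Cxcl2 (1.16, not called without control chow at 1.08) were higher, and Il1b was not called (0.48, edgeR adjusted p = 0.39).

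Of 13 lectins 2 were higher, including the β-glucan receptor Clec7a (3.02), and 10 lower. Of 11 interferon-stimulated genes 9 were lower and none was higher (median -2.66), among them Ifit3 (-5.97) and Irf7 (-2.66). None of 18 division genes was called, and 2 of 12 stress genes were higher, where 15.7% of all genes tested were higher. Of 7 osteoclast genes 2 were higher, 3 lower and 2 not called. Mmp9 was higher by 5.08 ± 0.50 (edgeR adjusted p = 0.00020) over macrophages at 8.04, 3.41, 1.44 and 0 CPM, and Dcstamp by 7.47 ± 0.51 (edgeR adjusted p = 3.6e-05). Tnfrsf11a (-2.49 ± 0.21) and Ctsk (-2.52 ± 0.45) were lower. Atp6v0d2, a subunit of the osteoclast proton pump, had no UMI in members and was at least 11.1-fold lower. Mmp9 and Dcstamp were thus the osteoclast genes higher in Langerhans cells than in both other cell types.

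**Figure D3:**
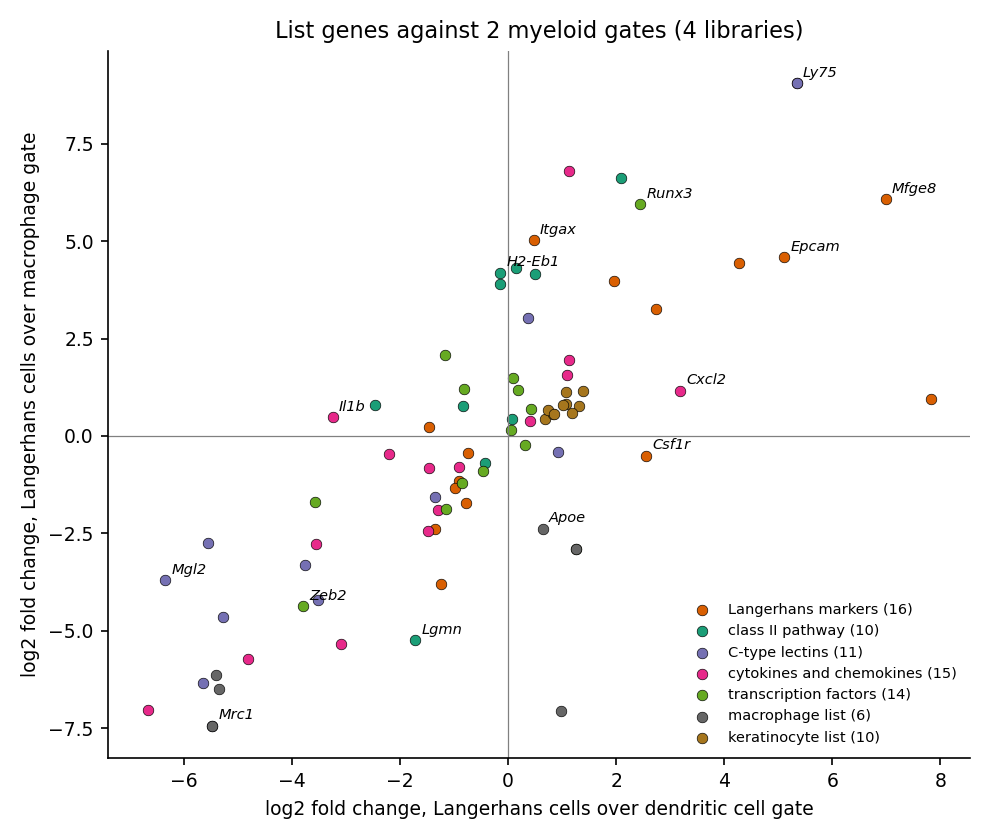
Log2 fold change of list genes in Langerhans cells against dendritic cells (horizontal axis) and against macrophages (vertical axis), with 1 point per gene, colored by list for 7 lists. Both axes use the same Langerhans sums and are not independent. Epcam, Mfge8, Ly75, Runx3 and Cxcl2 lie above 0 on both axes, and Zeb2 and Mgl2 below 0 on both.

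The abundance of Langerhans cells was then compared within each pair. Members were 0.636% of kept LNR cells (95% Clopper-Pearson interval 0.530 to 0.756) and 0.924% of kept sham cells (0.798 to 1.06), a log2 ratio of -0.54 (exact interval -0.88 to -0.21). The LNR share was below the sham share beyond counting error, and all intervals cover counting error only. In the chow pair the shares were 0.537% with SAR131675 (0.456 to 0.627) and 0.516% with control chow (0.429 to 0.615), a log2 ratio of 0.06 (-0.29 to 0.41). Over the 430 members with few keratinocyte transcripts the log2 ratios were -0.52 (-0.95 to -0.10) and 0.16.

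The share depends on the other cells of a suspension, so it was set against several denominators. Per cell with a Ptprc (CD45) UMI, members were 5.70% in LNR and 8.82% in sham, and 8.36% with SAR131675 and 9.22% with control chow. Cells with 10 or more Krt5 and Krt14 UMIs and no Ptprc UMI, chosen as keratinocytes, made up 37.5% of LNR and 42.0% of sham cells. Per keratinocyte, members were less frequent in LNR by -0.38 on the log2 scale (-0.72 to -0.04), per macrophage by -0.76 (-1.12 to -0.40) and per dendritic cell by -0.69 (-1.20 to -0.17). With SAR131675 the log2 ratio was 0.07 per macrophage (-0.31 to 0.46) and -0.09 per keratinocyte (-0.44 to 0.27), but -0.71 per dendritic cell (-1.24 to -0.18), since dendritic cells were 0.595% of SAR131675 cells and 0.350% of control chow cells. In LNR the interval lay below 0 for each of these denominators, and in the chow pair for the dendritic cells alone.

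**Figure D4:**
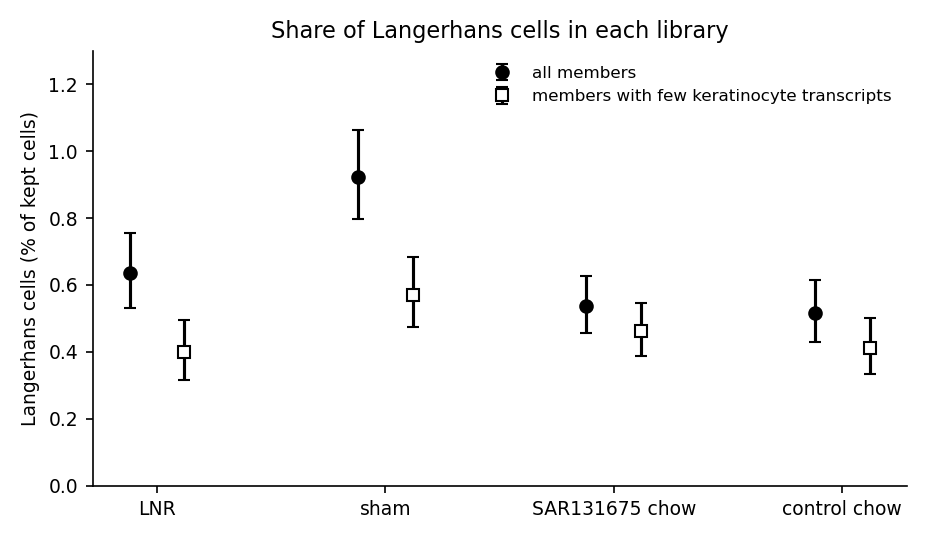
Share of kept cells that were Langerhans cells in each of the 4 libraries (percent, vertical axis from 0), with 95% Clopper-Pearson intervals as bars. LNR at 0.636% lies below sham at 0.924%, and SAR131675 chow at 0.537% and control chow at 0.516% overlap.

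Members also differed among themselves within a library. Among 10 genes whose UMIs varied most between members relative to counting error were the keratinocyte genes Krt10, Krt79, Lgals7 and Krt14, the fibroblast gene Dcn, the epithelial genes Cst6 and Defb6, and Malat1. The variance of Cst6 was 130, 113, 185 and 132 times the Poisson expectation in LNR, sham, SAR131675 and control chow, where the median gene stood at 1.13 to 1.29. Cd74, part of the rule, and the chemokine Cxcl2 completed the 10. The ratio for Cxcl2 was 42.1, 41.8, 69.2 and 42.0.

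Members with at least 2 UMIs of 18 division genes after thinning to 2000 UMIs were 28 of 126 (22.2%, 95% interval 15.3 to 30.5) in LNR and 36 of 188 (19.1%, 13.8 to 25.5) in sham. They were 44 of 152 (28.9%, 21.9 to 36.8) with SAR131675 and 21 of 120 (17.5%, 11.2 to 25.5) with control chow. The differences were 3.07 percentage points (-6.33 to 12.9) and 11.4 points (0.778 to 21.6). Among members with few keratinocyte transcripts the chow shares were 24.2% and 18.9%, and the interval of their difference, 5.29 points (-6.39 to 16.3), held 0. There the LNR and sham shares were 20.3% and 13.8%, a difference of 6.46 points (-4.75 to 18.4). Many members lay near the limit, as 29, 41, 39 and 26 had exactly 1 division UMI, whereas at least 5 UMIs were held by 4, 9, 17 and 4. The 18 genes summed to 579, 610, 1236 and 704 CPM over all members. Whether a member with 2 division UMIs was dividing cannot be told from this limit. Without thinning the shares were 63.5%, 48.2%, 80.1% and 61.3%. At the thinned depth 27.7%, 25.5%, 25.1% and 25.3% of the dendritic cells and 19.9%, 21.9%, 15.3% and 17.8% of the macrophages passed the same limit. Whether the members' difference in the chow pair departs from that of the dendritic cells was not tested.

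Mature, migratory members were few. After thinning, at least 2 UMIs of Ccr7 and Fscn1, an actin-bundling protein of mature dendritic cells, were found in 0 of 126 LNR and 0 of 188 sham members, which allows shares of members with such UMIs of up to 2.38% and 1.60% (a floor of 3 counts, covering counting error and not cells whose transcripts were missed at this depth). They were found in 2 of 152 and 1 of 120 members with SAR131675 and control chow. Without thinning 2, 1, 3 and 3 members had them, too few to compare their other genes. No difference in either pair was detectable at this depth.

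Between libraries, genes were compared where the members of a pair held at least 100 UMIs, and a gene was counted at a CPM ratio of 2-fold or more. For LNR against sham, 16 of 3526 genes (0.454%) were higher and 23 (0.652%) lower. For SAR131675 against control chow, 41 of 5219 (0.786%) were higher and 66 (1.26%) lower. A gene whose UMIs sit in few members can vary beyond its counting interval, so the UMIs were also counted by member. Of the 16 genes higher in LNR, 14 (87.5%) had 50% or more of the UMIs of the higher library in 5 members, as did 17 of the 23 lower genes, 25 of the 41 higher with SAR131675 and 46 of the 66 lower. Among genes under 2-fold the same held for 76 of 3487 (2.18%) and 86 of 5112 (1.68%). Without barcodes that held many UMIs of another cell type (doublets), 5 and 7 genes were past 2-fold in LNR and 29 were lower with SAR131675. Most genes past 2-fold rested on a handful of members, and most others did not.

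**Figure D5:**
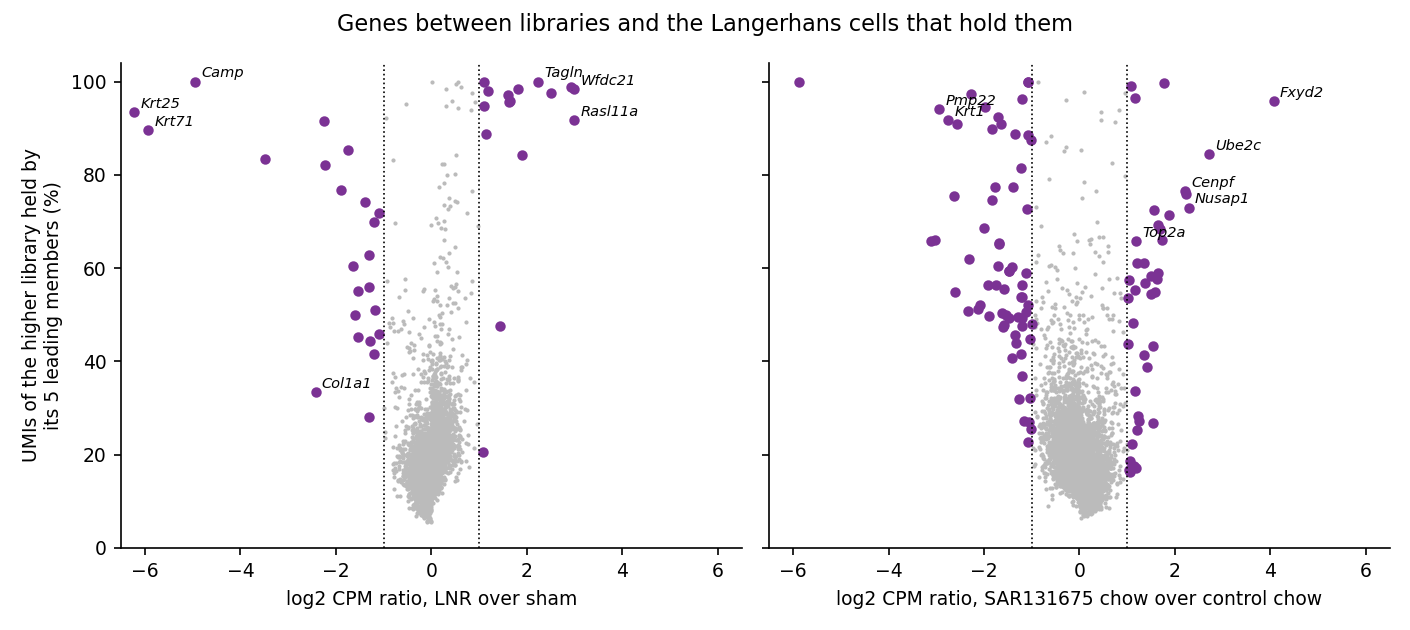
Log2 CPM ratio of each gene between the libraries of a pair (horizontal axis) against the share of the higher library's UMIs held by the 5 members with the most (percent, vertical axis), for LNR against sham and SAR131675 against control chow. Genes past 2-fold lie mostly above 50%, and the median gene at 18.8% and 18.7%.

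The 5 genes highest in LNR against sham were Rasl11a, Wfdc21, Hrnr, Flg and Tagln. Wfdc21 had 799 UMIs against 133 (log2 ratio 2.98), of which 92.7% in LNR were in 1 member, and its log2 ratio was 0.66 without doublet barcodes. The cornified layer genes Hrnr and Flg had 90.5% and 79.4% of their 190 and 160 LNR UMIs in 1 member each, Rasl11a 63.9% of 97, and the smooth muscle gene Tagln 43.2% of 111. The 5 lowest were Krt25, Krt71, Camp, S100a3 and Col1a1. Krt25 and Krt71, keratins of the hair root sheath, had no UMI in LNR and 295 and 242 in 15 and 18 sham members, with 61.0% and 50.8% in 1 member. Camp, a granule protein of neutrophils, had 122 UMIs in 4 sham members, 88.5% of them in 1, and the collagen Col1a1 had 49 UMIs against 347 (-2.43). None of these 10 is in the Langerhans marker list.

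With SAR131675 the 5 highest genes were Fxyd2, Ube2c, Nusap1, Naaa and Cenpf. Fxyd2, a regulator of the sodium pump, had 119 UMIs against 5 (63.9 against 3.81 CPM, log2 ratio 4.07, 2.81 to 5.72), of which 64.7% were in 1 member. The mitosis genes Ube2c (148 against 16 UMIs, in 15 and 7 members), Nusap1 (111 against 16, in 15 and 5) and Cenpf (158 against 24, in 20 and 7) had log2 ratios of 2.70, 2.29 and 2.21. Naaa, a lysosomal amidase of cDC1 cells, had 174 UMIs against 26 (2.24), and 0.72 without the members that held Xcr1 or Clec9a. Among the 5 lowest were Krt24, Mt4, Pmp22 and Krt1. The myelin gene Pmp22 had 152 UMIs in 13 control chow members and a log2 ratio of -2.95, and the epithelial genes Krt24, Mt4 and Krt1 had log2 ratios of -3.11, -3.03 and -2.76, beside the lower keratinocyte sum of the SAR131675 members given above. The part of keratinocyte transcripts in these ratios was not tested. Over members with few of them Mt4 stood at 0.45 and Krt1, part of the list that picks these members, at 1.47.

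Division genes stood higher in the SAR131675 members. All 7 division genes with 100 UMIs were higher with SAR131675, with a median log2 ratio of 0.70 against -0.01 over all genes, and 3 passed 2-fold. Top2a, the DNA topoisomerase of dividing cells, stood at 171 against 75.5 CPM (1.18, 0.85 to 1.52) and had a UMI in 38 and 21 members. Cenpa, the centromere histone, stood at 98.9 against 38.9 CPM (1.35, 0.89 to 1.82) in 46 and 24 members, and Birc5 at 61.2 against 27.4 CPM (1.16). The proliferation marker Mki67 stood at 194 against 136 CPM (0.52, 0.25 to 0.78) in 70 and 36 members. Of the SAR131675 UMIs, 5 members held 65.7% for Top2a, 41.3% for Cenpa, 55.3% for Birc5 and 43.2% for Mki67. The list's median was 0.52 over members with few keratinocyte transcripts, and in all other kept cells of the pair it was 0.43. In LNR against sham 1 of 4 division genes was higher and 3 lower (median -0.21), with Pcna at 0.47 and Mki67 at -0.51. Over members with few keratinocyte transcripts only 1 division gene kept 100 UMIs in that pair, at 0.61. Mki67 was at -3.02 there, but on fewer UMIs than that minimum.

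The cytokine list was higher with SAR131675 for 6 of 8 genes (median 0.24) and summed to 2882 against 2109 CPM. Of all 5219 genes tested in that pair, 2551 were above 0. Cxcl2 stood at 1685 against 1069 CPM (0.66, 0.57 to 0.75) and Il1b at 253 against 153 CPM (0.72, 0.48 to 0.97), while the other kept cells of the pair differed by 0.43 and 0.48 for these genes. In LNR against sham Cxcl2 was at -0.06 and Il1b, at 137 against 82.5 CPM, at 0.73, which was 0.10 over members with few keratinocyte transcripts. The list's median in LNR against sham was -0.01 over all members and -0.10 over those with few keratinocyte transcripts. Cytokine levels thus differed less than 2-fold in these examples, and the other kept cells of the chow pair differed in the same direction.

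Langerhans markers differed by less than 2-fold. Of 15 Langerhans markers, 3 were above and 12 below 0 in LNR (median -0.16) and 9 above and 6 below 0 with SAR131675 (median 0.03), and none passed 2-fold in either pair. Of all genes tested, 1678 of 3526 were above 0 in LNR and 2551 of 5219 with SAR131675. Epcam was at -0.17 and 0.21, Mfge8 at -0.16 and -0.14, Csf1r at -0.12 and -0.28, Runx3 at -0.26 and 0.04, and Cd86 at -0.05 and -0.04. Mmp9 was at 0.08 and 0.16. Of the class II pathway, 2 of 7 genes were above 0 in LNR (median -0.04) and 8 of 9 with SAR131675 (median 0.10), with Lgmn past 2-fold (1.17). All 9 class I genes were above 0 with SAR131675 (median 0.20) and 5 of 7 in LNR (0.04). Without the members that held Xcr1 or Clec9a, each of these lists kept 8 genes with SAR131675. Of these, 7 were above 0 in each list, at medians of 0.13 for class II and 0.21 for class I. Over members with few keratinocyte transcripts 6 of 8 class II and 7 of 8 class I genes were above 0 with SAR131675. Of the TGF-β and BMP genes 9 of 10 were below 0 with SAR131675, with a median of -0.18.

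Lists of other cell types differed more. The keratinocyte list had 9 of 10 genes above 0 in LNR (median 0.27) and 7 of 10 below 0 with SAR131675 (median -1.06). Over members with few keratinocyte transcripts, which are picked by that list, the medians were -0.41 and 0.77. The fibroblast list had 4 of 5 genes below 0 in LNR (median -1.20) and 4 of 4 with SAR131675 (median -1.22), against -0.48 and -0.06 over members with few keratinocyte transcripts, among which the summed level was the higher in LNR although the median ratio was below 0. Without the members that held Xcr1 or Clec9a the fibroblast medians were -1.20 in LNR and -2.29 with SAR131675. The cDC1 list had 4 of 4 genes above 0 with SAR131675 (median 1.16), and with the members that held Xcr1 or Clec9a left out, 2 genes remained with a median of 0.20, among them Irf8 at 0.18 where it had been 0.67. Stress genes were above 0 for 10 of 12 in LNR (median 0.15) and 5 of 12 with SAR131675 (median -0.02). Over members with few keratinocyte transcripts they were above 0 for 5 of 11 in LNR (median -0.004) and 4 of 12 with SAR131675 (median -0.12).

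The pairs share no library. At 1.5-fold or more in both, with 100 UMIs in each, 3 of 3236 genes (0.0927%) were higher under treatment, namely Tagln, Lyz2 and Il1b, and 11 (0.340%) were lower. The 10 that led the lower genes were Col1a1, Hbb-bs, Elovl6, Col1a2, Pam, Col3a1, Krt17, Timp3, Sparc and Scd1. Several of these depended on which members were counted. Over members with few keratinocyte transcripts Il1b was at 0.10 in LNR, Tagln at -3.41 with SAR131675 (8 UMIs left over that pair), Scd1 at 0.24 in LNR, Col1a2 at 0.17 with SAR131675, and Krt17 at 0.55 and 0.84 in LNR and SAR131675 (25 and 26 UMIs left). Others stayed below 0 but under 1.5-fold there, with Col1a2 at -0.48, Timp3 at -0.46 and Sparc at -0.12 in LNR and Pam at -0.24 and Col3a1 at -0.12 with SAR131675. Col1a1 was at -1.19 and -1.42 in LNR and SAR131675, and Lyz2 at 1.61 and 3.18. Without doublet barcodes Sparc was at 0.16 and 0.67, Scd1 at 0.11 in LNR and Timp3 at 0.16 with SAR131675, and with at least 3 Cd207 UMIs Lyz2 was at -0.85 and Scd1 at 0.24 in LNR. Another 6 (0.185%) were higher with SAR131675 and lower with LNR, and 4 (0.124%) the other way. Lyz2, lysozyme of macrophages, stood at 107 against 49.9 CPM in LNR and sham and at 83.8 against 28.2 CPM in SAR131675 and control chow, with log2 ratios of 1.10 and 1.57. None of the genes named for both pairs is in the Langerhans marker list.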

How the data were processed

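The authors deposited unnormalized UMI counts per gene and barcode for 4 libraries made with 10x Genomics Single Cell 3' v3 chemistry, in which short reads from the 3' ends of transcripts are counted once per molecule. The submitters' processing notes name Cell Ranger 6.1.2 and GRCm39 for all libraries, whereas per the file headers the chow pair was made with Cell Ranger 8.0.1. Levels are not compared between genes, since 3' counts depend on each transcript's end.

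Kept cells and members followed the limits given in the text. The members, gates and gene lists were chosen with earlier results of these data known. UMIs were summed over the members or gate cells of each library and divided by their total to give CPM. Langerhans cells were compared with each gate by the quasi-likelihood test of edgeR 4.0.16 in R 4.3.3 with TMM scaling and library as a block, and a gene was called at an adjusted p under 0.05 (Benjamini-Hochberg). Each SE was derived from that test, as the absolute log2 fold change over the square root of its F statistic. It is not a spread taken directly over libraries. On simulated counts with 200 changed genes, 70.7% of 2-fold and 100% of 4-fold changes were recovered against dendritic cells over 9106 genes. Against macrophages 67.3% and 100% were recovered over 11915 genes. Of the genes called there, 2.99% and 5.17% were unchanged. The simulation gave all genes 1 common dispersion (0.0324 and 0.0383) and no difference between libraries beyond depth. Its shares therefore do not measure recovery in the real data, where genes and libraries vary more. DESeq2 1.42.0 was an alternative. Between conditions, log2 CPM ratios carry exact conditional intervals at 95% and shares Clopper-Pearson intervals, which treat cells or UMIs as independent. Python 3.11.15, numpy 2.4.6, scipy 1.17.1, pandas 2.3.3 and matplotlib 3.10.9 were used.

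Named genes were list members, the 10 largest rises and falls against each gate at 50 CPM or more with 1 direction in all 4 libraries, the 5 largest ratios each way in each pair, genes at 1.5-fold in both pairs (at most 10 a direction), the 15 leading genes, and the 10 most uneven genes with a mean of at least 0.1 UMI per member. Xcr1 and Clec9a as a pair, and the members with under 0.3% keratinocyte UMIs, were picked once values had been seen. No doublet caller was run. As an alternative, barcodes with over 5% keratinocyte UMIs or at least 5 UMIs of the T cell, B cell, neutrophil, fibroblast or endothelial list were left out as doublets. Cells chosen as keratinocytes themselves summed to 26009 to 29041 CPM of the keratinocyte list, below that 5% limit. The alternative can therefore keep barcodes that hold a keratinocyte. Some genes that these rules name are not reported here.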

Additional observations from a re-analysis of the deposited data

Results flagged for a closer look

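For 7 named genes and 2 lists the members differed in opposite directions in the pairs, each beyond its counting interval. These differences between the pairs were not tested. Lists were taken only with a summed log2 ratio at least 0.1 from 0 and a gene at 100 UMIs in each pair. The class II pathway, stress, interferon-stimulated, monocyte and T cell sums also had intervals on opposite sides of 0 but missed these limits. The mitosis genes Ube2c, Nusap1 and Cenpf were higher with SAR131675, at log2 ratios of 2.70, 2.29 and 2.21, and lower in LNR, at -1.56, -0.91 and -1.57. Fxyd2 was at 4.07 with SAR131675 and -1.35 in LNR. The LNR ratios of these 4 genes rest on 78, 66, 64 and 48 UMIs over the pair for Ube2c, Nusap1, Cenpf and Fxyd2, under the minimum of 100 UMIs used for the counts of genes. The epithelial genes Wfdc21, Mt4 and Krt1 were lower with SAR131675, at -2.27, -3.03 and -2.76, and higher in LNR, at 2.98, 0.40 and 0.35. The summed keratinocyte list was at -1.11 with SAR131675 and 0.23 in LNR. Over members with few keratinocyte transcripts, which are picked by that list, both orders turned, at 735 CPM with SAR131675 against 499 with control chow and 518 in LNR against 590.3 in sham. The summed C-type lectin list was at 0.23 with SAR131675 and -0.30 in LNR.

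Barcodes above the upper limits on genes or UMIs were not members, yet some met the marker rule. There were 25 of 523 in LNR, 26 of 513 in sham, 123 of 6221 with SAR131675 and 130 of 4400 with control chow. Their median depth was 48097 to 62651 UMIs, and 25, 26, 119 and 127 of them held at least 20 UMIs of the keratins. The chow libraries thus held about as many of these barcodes as members. What they are was not tested.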

How the results depend on the processing

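In all, 2381 alternative values were computed over 254 results. Against the gates, 1761 of 1864 alternative values of named genes kept their direction and their side of the threshold, 86 no longer passed it (35 of them without the library block) and 16 newly passed it. Without the block 354 genes were higher and 508 lower than in dendritic cells, and 896 and 1166 against macrophages. Leaving out 1 library at a time gave 619 to 1029 genes higher and 801 to 1064 lower than in dendritic cells, and 1233 to 1668 and 1462 to 1774 against macrophages, with the lowest higher counts, past 1.5 times below the full count, without control chow. DESeq2 called 744 higher and 929 lower, and 1777 and 1766. Krt5 against dendritic cells turned to -0.37 over members with few keratinocyte transcripts, but it is part of the list that picks them. No paired analysis was possible because each condition had 1 library, and the library block stands in for it between cell types.

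Between libraries, counts followed the UMI minimum and the barcodes kept. With 30 UMIs, 87 genes were 2-fold higher and 139 lower in LNR, and 219 and 273 with SAR131675. With 300 UMIs these were 3 and 4, and 4 and 19. Without doublet barcodes 5 and 7 genes were past 2-fold in LNR and 29 were lower with SAR131675, and over members with few keratinocyte transcripts, an alternative chosen after seeing the data, 6 were lower in LNR and 29 with SAR131675. Of 389 alternative values of named genes, 287 stayed within the counting interval, 89 moved and the others reversed, counting only alternatives that left a gene at least 30 UMIs over the pair. Without doublet barcodes, Mt4 (-0.23), Sparc (0.16) and Scd1 (0.11) in LNR and Wfdc21 (1.05), Timp3 (0.16) and Sparc (0.67) with SAR131675 reversed. With at least 3 Cd207 UMIs, Lyz2 (-0.85) and Scd1 (0.24) in LNR reversed. With few keratinocyte transcripts, Mt4 (-0.57) and Scd1 (0.24) in LNR and Mt4 (0.45), Krt1 (1.47) and Col1a2 (0.17) with SAR131675 reversed. There, genes left with under 30 UMIs also changed sign, among them Krt17 (0.55 in LNR, 0.84 with SAR131675), Krt1 in LNR (-0.30), and Tagln (-3.41) and Wfdc21 (2.65) with SAR131675. The cause was not tested.

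The LNR share kept its direction, at log2 ratios of -0.80 to -0.42 over alternatives on kept cells. The SAR131675 share ran from -0.18 to 0.23 and was -0.71 per dendritic cell, a denominator chosen after seeing the data. Without thinning the share of members with at least 2 division UMIs differed by 15.3 points in LNR, at median depths of 6918.5 and 6228 UMIs in LNR and sham. The planned comparison of Ccr7 or Fscn1 positive members with the rest was not run, since fewer than 10 such members were found in every library. With 1 library per condition, depth limits the list genes that reach 100 UMIs, and nothing here measures the spread between mice.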
